A study of Mus musculus with 6 samples.

Results

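The genes described here surround *Snhg18* on chromosome 15 of the mouse genome (GRCm38). They are the rows of the deposited count table that start between 28000000 and 36000000 and hold at least 10 reads summed over the 6 libraries, leaving out *Snhg18* itself and *Sema5a*, *Cct5*, *Rpl30*, *Vps13b* and *Cox6c*. Of the 55487 genes in the table, 101 start in this window, 69 of them held fewer than 10 reads and 6 were left out by name, so that 26 genes remained. They were thus chosen by position and by their total reads, without regard to group, and the window was drawn with earlier results of these data known. Just inside it were *Gm49216* with 11 reads and *D730044K07Rik* with 12, and just outside it was *Gm49195* with 8.

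RNA was sequenced from mouse pulmonary artery smooth muscle cells (mPASMCs), the contractile cells of the arterial wall in the lung, that had received either a control siRNA (si-NC, 3 libraries) or an siRNA against *Snhg18* (si-*Snhg18*, 3 libraries). The cells were bought from a supplier and used at low passage, the labels give no strain and name no genetic change, and the sources used here give neither the oxygen level nor the time after transfection for the sequenced cells. The labels number the libraries 1 to 3 in each group and do not say whether they came from separate cultures, so the p-values measure the spread between these libraries, which may be technical. The labels and the paper name no sequencing batch.

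Long noncoding RNAs (lncRNAs) can act in cis, on genes near the site where they are transcribed, or in trans, on genes elsewhere. A cis-acting lncRNA may recruit chromatin regulators to its own locus, or the act of its transcription may change how neighboring promoters are used. *Snhg18* is the host gene of a box C/D small nucleolar RNA, *Snord123*, which lies in its intron. The question addressed here was whether the neighbors of *Snhg18* changed after its knockdown, and whether the change followed their distance from it. The siRNA targets the RNA, so a role of the act of transcription was not tested. The paper lists a single mouse siRNA against *Snhg18*, and 46.7% of the si-NC level of *Snhg18* remained.

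*Snord123* (ENSMUSG00000089317, minus strand, chr15:32241853-32241923) is the only one of the 26 genes that lies within *Snhg18*. Its annotated transcript of 71 bases, from GENCODE M21, is shown because it is part of the precursor of the RNA that the siRNA targets. The capitals mark the letters TGATGA, which match the C box, and CTGA, which match the D box.
Snord123: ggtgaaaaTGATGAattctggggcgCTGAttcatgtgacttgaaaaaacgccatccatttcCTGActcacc

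The 300 bases around the start of transcription (250 before it and 50 after it, RefSeq, GRCm38.p6) are shown for *Snhg18* and for *Ankrd33b*, *Ropn1l* and *Ctnnd2*, the neighbors on its lower-coordinate side that were called higher once the repeat number was taken into account. All are written from 5′ to 3′ in the direction of the gene. Capitals mark the GC box, the letters GGGCGG or CCGCCC (the same motif on the other strand), which the transcription factor Sp1, studied by the authors at the *Snhg18* promoter, is known to bind.
Snhg18 (minus strand, chr15:32244613-32244912): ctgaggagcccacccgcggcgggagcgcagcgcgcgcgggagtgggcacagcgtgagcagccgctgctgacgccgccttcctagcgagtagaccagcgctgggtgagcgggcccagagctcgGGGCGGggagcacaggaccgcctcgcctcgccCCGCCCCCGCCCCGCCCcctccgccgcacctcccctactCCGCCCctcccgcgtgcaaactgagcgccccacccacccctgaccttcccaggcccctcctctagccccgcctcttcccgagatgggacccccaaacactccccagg
Ankrd33b (minus strand, chr15:31367710-31368009): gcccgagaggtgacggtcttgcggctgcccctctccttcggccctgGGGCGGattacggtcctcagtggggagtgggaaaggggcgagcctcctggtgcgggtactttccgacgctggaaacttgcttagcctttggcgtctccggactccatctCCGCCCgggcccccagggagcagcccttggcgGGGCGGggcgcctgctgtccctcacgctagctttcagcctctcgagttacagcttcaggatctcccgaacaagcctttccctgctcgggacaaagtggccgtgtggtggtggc
Ropn1l (minus strand, chr15:31453640-31453939): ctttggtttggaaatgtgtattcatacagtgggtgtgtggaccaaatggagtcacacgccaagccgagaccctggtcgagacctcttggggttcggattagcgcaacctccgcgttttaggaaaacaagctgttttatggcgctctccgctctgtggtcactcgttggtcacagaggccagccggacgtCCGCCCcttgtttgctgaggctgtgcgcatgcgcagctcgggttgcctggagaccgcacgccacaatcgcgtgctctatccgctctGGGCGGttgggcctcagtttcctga
Ctnnd2 (plus strand, chr15:30172284-30172583): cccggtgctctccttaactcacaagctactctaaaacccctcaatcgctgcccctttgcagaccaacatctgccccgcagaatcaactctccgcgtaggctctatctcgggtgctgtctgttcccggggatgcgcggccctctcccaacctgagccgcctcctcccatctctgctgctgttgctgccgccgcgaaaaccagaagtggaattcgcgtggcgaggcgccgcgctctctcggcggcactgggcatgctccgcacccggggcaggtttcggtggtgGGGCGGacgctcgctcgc

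The *Snhg18* window held 5 GC boxes. There were 3 in the window of *Ankrd33b*, 2 in that of *Ropn1l* and 1 in that of *Ctnnd2*. Promoter sequences were matched by symbol for 7 of the 26 genes, the other 4 being those of *Dap*, *Marchf6*, *Cmbl* and *Atpsckmt*. These 4 genes were not called, and their windows held 5 GC boxes in *Dap*, 3 in *Marchf6* and 1 in *Atpsckmt*. All 7 genes lie on the lower-coordinate side. *Tspyl5* and *Laptm4b*, also called once the repeat number was taken into account, had no matched window. The numbers of GC boxes overlapped between the called and the other genes, and a relation to the calls was not tested in so few genes. A GC box was found in 6 of these 7 windows, all except that of *Cmbl*, against 35.7% of the 32851 promoter windows in the table. Neither CCAAT nor TATAAA was found on either strand of the 7 windows, while 37.4% and 13.6% of all windows held them. The share of G and C ranged from 49% in *Atpsckmt* to 78.7% in *Marchf6*, with a median of 52.7% over all windows. A match is a run of letters and not a measured binding site.

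Each library held between 18097718 and 25988746 counted reads, with si-*Snhg18* 3 the smallest, and the 26 genes took 0.113% to 0.13% of them. A floor of 3 reads, which covers counting error only, equals 0.115 to 0.164 CPM (counts scaled to library size with TMM factors). The targeted *Snhg18* was at 22.2 to 23.5 CPM in the si-NC libraries and 9.97 to 11.2 CPM in the si-*Snhg18* libraries, a log2 fold change of -1.10. All 7 smooth muscle markers were detected, with a summed level of 1748 to 1895 CPM in si-NC and 1200 to 1850 CPM in si-*Snhg18* libraries. By the quasi-likelihood method of edgeR, 1 of them, *Tagln*, passed at 0.05 after adjustment over all genes (log2 fold change -0.51). Of all genes, 7.36% passed. The log2 fold changes of *Acta2*, *Myh11*, *Cnn1*, *Des* and *Lmod1* were also below 0 (-0.22, -0.60, -0.48, -1.79 and -0.23), and that of *Smtn* was 0.004. The summed levels in si-NC and si-*Snhg18* libraries were 12.4 to 14 and 13.3 to 15.4 CPM for 5 endothelial markers, 9.07 to 12 and 8.88 to 14.4 CPM for 5 leukocyte markers, 7.08 to 22.3 and 1.11 to 7.31 CPM for 4 epithelial markers, and 462 to 544 and 326 to 464 CPM for 4 fibroblast markers. Most of the epithelial sum was *Krt18* (mean 12.1 CPM in si-NC and 3.5 CPM in si-*Snhg18*). Most of the fibroblast sum was *Pdgfra* (477 and 376 CPM). The estimate for *Tcf21* was below 0 like that for *Pdgfra*, and those for *Dpt* and *Col14a1* were above 0. None of the markers tested in these 4 sets passed, *Sftpc* had no read, and *Ptprc*, *Itgam*, *Epcam* and *Cdh1* had at most 8 reads in a library. Their part in the changes below was not tested, and in bulk RNA fewer cells of a type and less RNA per cell cannot be told apart.

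Of the 26 genes, 21 had enough reads to be tested (18 protein-coding and 3 noncoding). Few of these neighbors passed the test. *Ankrd33b* was the only gene that passed at 0.05 in edgeR, and its level was higher after the knockdown. No gene was called lower by edgeR, by DESeq2 or with the block, and none below 0 had an unadjusted p under 0.05 without the block. With the block, *Sdc2* (unadjusted p 0.0313) and *Nipal2* (0.0434) were below 0 with an unadjusted p under 0.05 in edgeR, and neither passed after adjustment. One call among 21 genes compares with 7.36% of the 14531 genes tested in the whole table (3.65% higher and 3.71% lower). An unadjusted p under 0.05 was reached by 5 of the 21 genes, against 24.9% of all genes. The log2 fold change was above 0 for 13 and below 0 for 8 of the 21 genes, with a median of 0.12 (range -0.84 to 1.33), beside a median of 0.01 over all genes. The median was 0.24 without si-NC 3 (21 genes tested) and 0.0693 without si-*Snhg18* 3, a fit in which 22 genes passed the filter on reads. It was smaller than 0.25 in either direction for 11 genes (52.4%), close to the 50.6% of all genes, and the estimate for 5 genes was 1.5-fold or more in either direction (23.8%), against 16.9% of all genes. A call together with a 1.5-fold difference was reached by 1 gene, and by 3.67% of all genes.

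Same-numbered libraries deviated together from their group means over all genes, most clearly those numbered 2 (r = 0.742). Numbers 1 and 3 were not told apart. The r between si-NC 3 and si-*Snhg18* 1 was 0.497, above the 0.41 and 0.359 within numbers 1 and 3. A fit that takes the repeat number as a block called more genes in the window and over all genes. With the block, 5 of the 21 genes passed an adjusted p of 0.05, namely *Tspyl5*, *Ankrd33b*, *Ropn1l*, *Ctnnd2* and *Laptm4b*, and all 5 were higher. The corresponding share of all genes was 27.2% in either direction and 13.6% higher. Of the 5 genes, *Tspyl5*, *Ankrd33b* and *Ropn1l* also differed by 1.5-fold, which together with a call held for 10.1% of all genes. Groups that did not overlap were found for 5 of the 21 tested genes, *Tspyl5*, *Ankrd33b*, *Ropn1l*, *Ctnnd2* and *Marchf6*, all higher in si-*Snhg18* cells. The share was 30.9% of all genes in either direction and 15.4% higher. The change had one sign in all 3 same-numbered pairs for 14 genes, 10 higher (47.6%) and 4 lower (19%), where all genes had 29.6% and 30%.

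**Figure D1:**
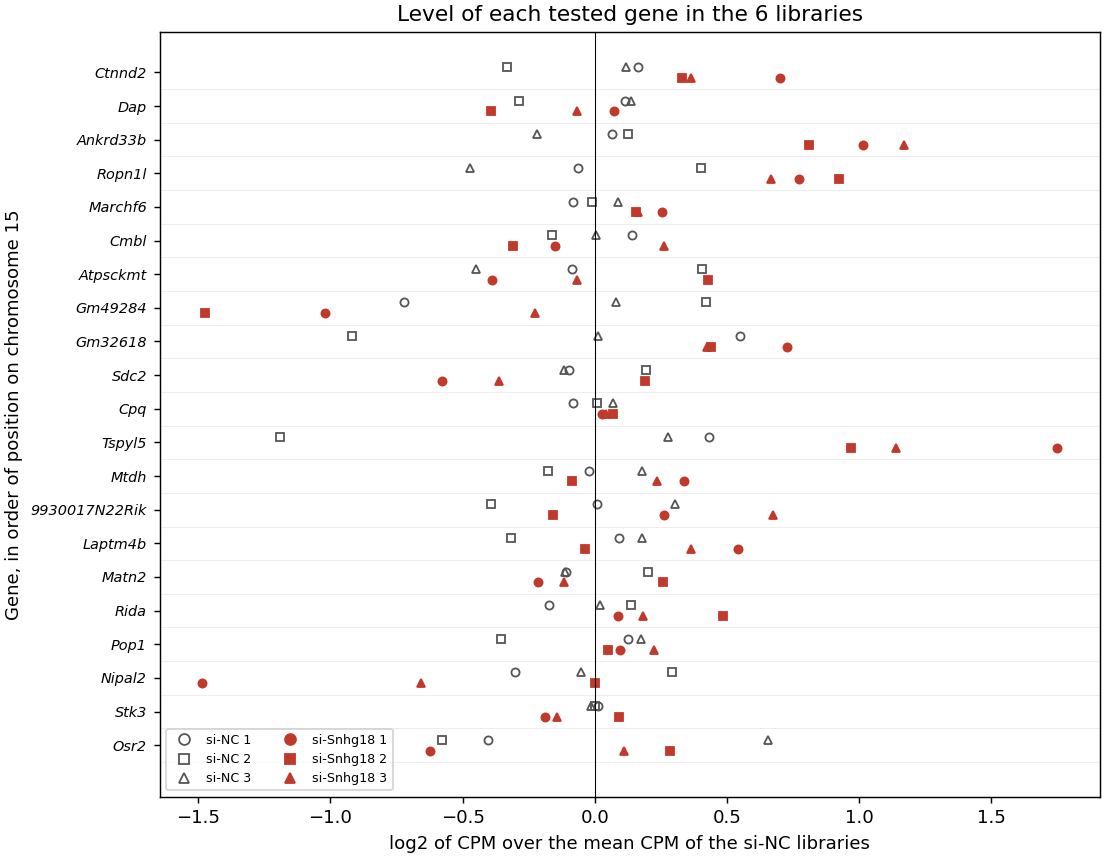
Level of each of the 21 tested genes in the 6 libraries, as log2 of CPM over the mean CPM of the si-NC libraries (horizontal axis), with genes in order of position (vertical axis). Open grey symbols are si-NC and filled red symbols si-*Snhg18* libraries, and the shape gives the repeat number. The si-*Snhg18* libraries lie to the right of all si-NC libraries in 5 genes, and the squares, the libraries numbered 2, are the highest or the lowest of both groups in 14 genes.

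*Ankrd33b* (ENSMUSG00000022237, minus strand, 31291478 to 31367726) encodes a protein with ankyrin repeats, a fold that binds other proteins. It was at 2.12, 2.21 and 1.74 CPM in si-NC libraries 1 to 3 and at 4.08, 3.54 and 4.55 CPM in si-*Snhg18* libraries 1 to 3. All si-*Snhg18* libraries were above all si-NC libraries. Its level thus went from 2.02 ± 0.248 CPM to 4.05 ± 0.506 CPM (SD, n = 3 each), a 2-fold rise with a log2 fold change of 1.00 ± 0.21 (standard error), at an edgeR adjusted p of 0.0403 that became 0.019 with the block. A two-sided exact permutation test over the 6 libraries gave p = 0.1, which is the smallest that 3 against 3 allow. The rise was seen in each pair, at 0.92, 0.66 and 1.35 on the log2 scale. Its call depended on single libraries. The adjusted p rose above 0.05 without si-NC 1 (0.166), si-NC 2 (0.112), si-NC 3 (0.159), si-*Snhg18* 1 (0.102) or si-*Snhg18* 3 (0.169), and it was 0.0209 without si-*Snhg18* 2, while the log2 fold change stayed between 0.91 and 1.09. Fits on 5 libraries called 0 to 3282 of all genes. *Ankrd33b* lies 872.8 kb from *Snhg18* and ranked low in level, at 0.27 CPM per kilobase of exon in si-NC cells.

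*Ropn1l* (ENSMUSG00000022236) encodes a ropporin-like protein of the sperm flagellum and lies next to *Ankrd33b*, 786.8 kb from *Snhg18*. The si-NC libraries 1 to 3 had 1.68, 2.33 and 1.27 CPM, and the si-*Snhg18* libraries had 3.01, 3.35 and 2.79 CPM. The groups did not overlap. The log2 fold change was 0.79 ± 0.28 (standard error), with 0.142 as its edgeR adjusted p, and the call was made with the block alone (adjusted p = 0.0469). Of the 6 genes listed as ciliary, sperm or sensory, *Ropn1l* was the only one in the window with at least 10 reads, and the window rows of *Dnah5*, an axonemal dynein heavy chain, and *Tas2r119*, a bitter taste receptor, held no read.

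*Ctnnd2* (ENSMUSG00000022240) encodes delta-catenin, a partner of cadherins at adherens junctions, and its nearest edge is 1211 kb from *Snhg18*. It was at 14.5, 10.2 and 14 CPM in si-NC and 21, 16.2 and 16.6 CPM in si-*Snhg18* libraries 1 to 3. Every si-*Snhg18* library was above every si-NC library, and both libraries numbered 2 were the lowest of their group. The log2 fold change was 0.48 ± 0.18 (standard error), at an edgeR adjusted p of 0.164 that became 0.0225 with the block.

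*Tspyl5* (ENSMUSG00000038984) encodes a relative of the nucleosome assembly proteins and had the largest log2 fold change of the 21 genes, at 1439 kb from *Snhg18*. Its values were 1.51, 0.49 and 1.36 CPM in si-NC and 3.76, 2.19 and 2.47 CPM in si-*Snhg18* libraries 1 to 3. The groups did not overlap, and si-NC 2 was far below the other si-NC libraries. The log2 fold change was 1.33 (standard error 0.45), and its adjusted p was 0.136 in edgeR, 0.0486 in DESeq2 and 0.0176 with the block. With each library left out in turn, it ranged from 0.97 to 1.60 with adjusted p-values from 0.0688 to 0.307.

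*Laptm4b* (ENSMUSG00000022257), a transmembrane protein of late endosomes and lysosomes, was more abundant, at 93.3, 70.5 and 99.3 CPM in si-NC and 128, 85.6 and 113 CPM in si-*Snhg18* libraries 1 to 3. The groups overlapped because si-*Snhg18* 2 was below si-NC 1 and si-NC 3. Within the pairs the differences were 0.45, 0.28 and 0.19 on the log2 scale. Its log2 fold change was 0.31 ± 0.18 (standard error), at an edgeR adjusted p of 0.349 that became 0.0166 with the block.

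On the list of cell surface and matrix genes, 6 of 7 genes were tested, and the seventh, the potassium channel subunit *Kcns2*, had no read. None passed without the block (unadjusted p under 0.05 for 2, *Tspyl5* and *Ctnnd2*, against 24.9% of all genes, and 1 call by DESeq2), and 3 passed with it, *Ctnnd2*, *Tspyl5* and *Laptm4b*, against 27.2% of all genes. Of these, *Ctnnd2* acts at the cell surface, *Laptm4b* in endosomes and *Tspyl5* belongs to a family of nuclear proteins. The median log2 fold change of the 6 genes was 0.15. *Sdc2*, syndecan-2, a heparan sulfate proteoglycan that binds growth factors and matrix, was at 103, 127 and 102 CPM in si-NC and 74.2, 126 and 86.1 CPM in si-*Snhg18* libraries 1 to 3. The libraries numbered 2 matched each other, while si-*Snhg18* 1 and 3 were below all si-NC libraries. Its log2 fold change was -0.21 (edgeR adjusted p 0.562). Without si-*Snhg18* 2 it was -0.47 (edgeR adjusted p 0.041), the only one of the fits run in which any of the 26 genes was called lower. *Matn2*, matrilin-2, a protein of the extracellular matrix, was at 55.5 ± 7.17 and 55.1 ± 9.9 CPM (SD, n = 3 each). *Nipal2*, of a family of magnesium transporters, was at 2.24, 3.39 and 2.67 CPM in si-NC and 0.989, 2.77 and 1.75 CPM in si-*Snhg18* libraries 1 to 3. The groups overlapped, with a log2 fold change of -0.59 (edgeR adjusted p 0.411).

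Among 5 genes listed as regulators of cell death, signaling and transcription, *Ankrd33b* was called and the other 4 were not. Of all genes, 7.36% were called by edgeR. *Ankrd33b* is on this list although only its ankyrin repeats are described here. The median log2 fold change of the 5 genes was -0.03. *Dap*, a mediator of cell death that also restrains autophagy, had the most reads of the 26 genes. It was at 593, 449 and 602 CPM in si-NC and 577, 418 and 523 CPM in si-*Snhg18* libraries 1 to 3, with the lowest value of each group in the library numbered 2. The log2 fold change was -0.12 ± 0.16 (standard error), with 0.7 as its edgeR adjusted p. *Mtdh*, metadherin, an RNA-binding protein of the endoplasmic reticulum, was at 171, 154 and 197 CPM in si-NC and 220, 164 and 205 CPM in si-*Snhg18* libraries. These groups overlapped (log2 fold change 0.17). *Stk3*, the Hippo pathway kinase MST2, was at 39.2 ± 0.35 CPM and 37.3 ± 3.96 CPM (SD, n = 3 each), and *Osr2*, a zinc finger transcription factor, at 0.915 ± 0.457 and 0.898 ± 0.272 CPM (SD, n = 3 each).

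The list of genes for RNA and protein turnover also holds other enzymes, such as *Rida*, *Cmbl* and *Atpsckmt*. It had 6 of 7 genes tested and 0 called by edgeR, by DESeq2 or with the block. Of all genes, 7.36% were called by edgeR and 27.2% with the block. An unadjusted p under 0.05 was reached by 1 of the 6 genes, against 24.9% of all genes. That gene was *Marchf6*, a ubiquitin ligase in the membrane of the endoplasmic reticulum. It was at 85.9, 90 and 96.5 CPM in si-NC and 108, 101 and 102 CPM in si-*Snhg18* libraries 1 to 3, so that the groups did not overlap although the log2 fold change was 0.19 ± 0.07 (standard error), at an edgeR adjusted p of 0.163 that became 0.0755 with the block. *Rida*, which deaminates reactive imines, had a log2 fold change of 0.26, and *Pop1*, a subunit of RNase P and RNase MRP, separated from it by 48 bp on the opposite strand, had 0.12. *Atpsckmt*, which methylates the c subunit of ATP synthase, was at 7.04, 9.88 and 5.47 CPM in si-NC and 5.7, 10 and 7.12 CPM in si-*Snhg18* libraries 1 to 3, with both libraries numbered 2 above all others. *Cpq*, a secreted carboxypeptidase, was at 55.5, 59.2 and 61.6 CPM in si-NC and 60, 61.7 and 60.6 CPM in si-*Snhg18* libraries. It was the most precisely measured, with a log2 fold change of 0.05 and the smallest standard error of the 21 genes, 0.07. *Cmbl*, a hydrolase, was at 1.21, 0.98 and 1.1 CPM in si-NC and 0.989, 0.884 and 1.32 CPM in si-*Snhg18* libraries, so that the groups overlapped, and *Erich5* had 2 reads in all.

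The 8 noncoding or unnamed genes had few reads. *Gm32618*, a lincRNA and the tested gene nearest to *Snhg18* on the higher-coordinate side (534.2 kb), was at 2.03, 0.735 and 1.4 CPM in si-NC and 2.3, 1.88 and 1.86 CPM in si-*Snhg18* libraries 1 to 3. The groups overlapped through si-NC 1 (log2 fold change 0.54, edgeR adjusted p 0.434). *Gm49284*, an unverified transcript 616.5 kb away on the lower-coordinate side and 744 bp from the end of *Atpsckmt* on the same strand, was at 0.389, 0.858 and 0.678 CPM in si-NC and 0.317, 0.231 and 0.548 CPM in si-*Snhg18* libraries. It had the lowest estimate of the 21 genes, a log2 fold change of -0.84 ± 0.48 (standard error) that did not pass (edgeR adjusted p 0.333), and its groups overlapped. *9930017N22Rik* lies within *Mtdh* on the same strand and had a log2 fold change of 0.29.

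The other 5 noncoding genes were below the filter on reads and were not tested. *Snord123*, inside the knocked-down transcript, had 5, 7 and 9 reads in si-NC and 7, 5 and 1 reads in si-*Snhg18* libraries 1 to 3. These counts were near the floor and overlapped, so that a fall of the size seen for *Snhg18* was not detectable at this depth, and mRNA libraries of this kind capture few small RNAs. The pseudogene *Gm46522* had 2, 3 and 1 reads in si-NC and 8, 5 and 6 in si-*Snhg18* libraries. Its groups did not overlap, with the si-NC counts at or below the floor of 3 reads. *Gm49216* (11 reads, within *Marchf6* on the same strand), *D730044K07Rik* (12 reads, overlapping *Rpl30* by 661 bp on the opposite strand) and *Gm48961* (43 reads, within *Vps13b* on the same strand) overlapped between groups. The counting program and its strand setting are not given in the sources used here, so reads of overlapping genes cannot be told apart.

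Over the whole window, any relation of change to distance was weak with all 6 libraries and varied in sign between settings. The gap from the *Snhg18* gene to the nearest edge of each gene was set against the log2 fold change of the 21 tested genes, whose values come from the same 6 libraries and are not independent replicates. Spearman's rho was -0.06 (Pearson's r -0.12) for the signed change and -0.21 (r -0.26) for its absolute size. Without si-NC 3 the signed rho was 0.05 over 21 genes, and without si-NC 2 it was -0.27 over the 22 genes tested in that fit. The absolute rho was nearer to 0 (-0.0571 to -0.0141, over 21 or 22 genes) without any 1 library other than si-*Snhg18* 3. Pair by pair, rho for the signed change was 0.03, 0.19 and -0.35 for the libraries numbered 1, 2 and 3. The 2 sides had opposite signs, with a rho of 0.5 over the 8 genes on the lower-coordinate side and -0.46 over the 13 genes on the higher-coordinate side, and no test of this difference was made. The first of these was 0.25 for genes of at least 1 CPM in 3 libraries and 0.0424 without the filter on reads, and the second was -0.29 without si-NC 3. When only genes with a mean of at least 1 CPM were used, the absolute change had a rho of 0.03 over 18 genes. Genes with higher levels had smaller changes (rho -0.32 between mean log2 CPM and absolute change).

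**Figure D2:**
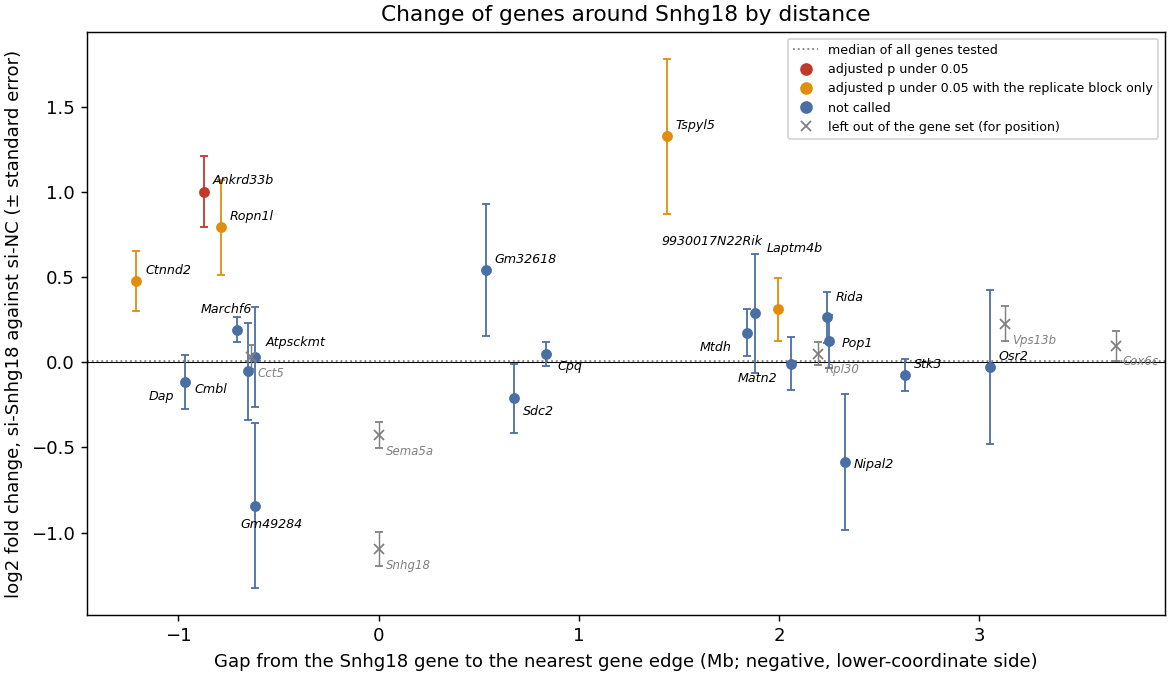
Log2 fold change in si-*Snhg18* against si-NC cells (vertical axis, with its standard error) of the 21 tested genes by the gap between *Snhg18* and the nearest gene edge in Mb (horizontal axis, negative on the lower-coordinate side). The red point is the gene called without the block, orange points are called with it alone, blue points are not called, and grey crosses are *Snhg18* and the 5 other genes left out. Higher and lower values occur on both sides, and no gene within 0.5 Mb of *Snhg18* other than *Sema5a* had enough reads to be tested.

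By distance, the 10 genes within 1 Mb had a median log2 fold change of 0.04 (from -0.84 to 1.00), with 1 called. The 5 genes from 1 to 2 Mb had a median of 0.31 and were all above 0 (from 0.17 to 1.33), and the 5 genes from 2 to 3 Mb had a median of -0.01 (from -0.59 to 0.26), with 0 called by edgeR in either bin. In these bins, in order of distance, 3, 2 and 0 genes had an unadjusted p under 0.05 (24.9% of all genes) and 2, 3 and 0 passed with the block (27.2% of all genes). *Osr2*, at 3.05 Mb, was the only tested gene farther away. The middle bin holds *Ctnnd2*, *Tspyl5*, *Mtdh*, *9930017N22Rik* and *Laptm4b*, of which *9930017N22Rik* lies within *Mtdh*.

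The lower-coordinate side had 1 gene called by edgeR among 8 (median log2 fold change 0.11) and the higher-coordinate side 0 among 13 (median 0.12). An unadjusted p under 0.05 was reached by 4 and 1 genes (24.9% of all genes), and 3 and 2 genes passed with the block (27.2% of all genes). The medians by side moved by over 1.5 times without si-NC 2 (0.23 and 0.0708), and those of the lower-coordinate side without si-*Snhg18* 1 (0.18) and of the higher-coordinate side without si-NC 3 (0.27), si-*Snhg18* 2 (0.0821) or si-*Snhg18* 3 (0.0579). In the rest of chromosome 15, 40 of 524 tested genes were called (7.63%), 21 higher and 19 lower, with a median log2 fold change of 0.03. The nearest neighbor of all, *Sema5a*, starts 148 bp from *Snhg18* on the opposite strand. It was at 333, 332 and 354 CPM in si-NC and 234, 270 and 255 CPM in si-*Snhg18* libraries 1 to 3, lower in each, with a log2 fold change of -0.43 (edgeR adjusted p 0.0278). Putting *Sema5a*, *Cct5*, *Rpl30*, *Vps13b* and *Cox6c* back, an alternative chosen after seeing the data, gave a rho of 0.10 for the signed change over 26 genes.

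Much of the spread of these genes went with the repeat number. Over the 6 libraries, the number held more of the variance of log2 CPM than the siRNA did in 15 of the 21 genes (71.4%), against 56.5% of all genes. The number has more levels than the siRNA, so its share is larger on average even where neither has an effect. The shares were not corrected for this, and they are read beside those of all genes. The median share was 22.4% for the siRNA and 54.2% for the number, and 31.6% and 43.2% over all genes. *Matn2* was nearly all number (96.3%, with 0.199% for the siRNA), and *Dap* followed with 89.1%. In contrast, the siRNA held 91.9% in *Ankrd33b*, 72.9% in *Marchf6*, 71.7% in *Ropn1l*, 62.9% in *Tspyl5* and 59.9% in *Ctnnd2*. The libraries numbered 2 were the highest of both groups in 6 genes (*Ropn1l*, *Atpsckmt*, *Sdc2*, *Matn2*, *Rida* and *Nipal2*) and the lowest of both groups in 8 (*Ctnnd2*, *Dap*, *Cmbl*, *Tspyl5*, *Mtdh*, *9930017N22Rik*, *Laptm4b* and *Pop1*), together 66.7% of the genes and 62% of all genes. What the numbers share is not stated in the labels.

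**Figure D3:**
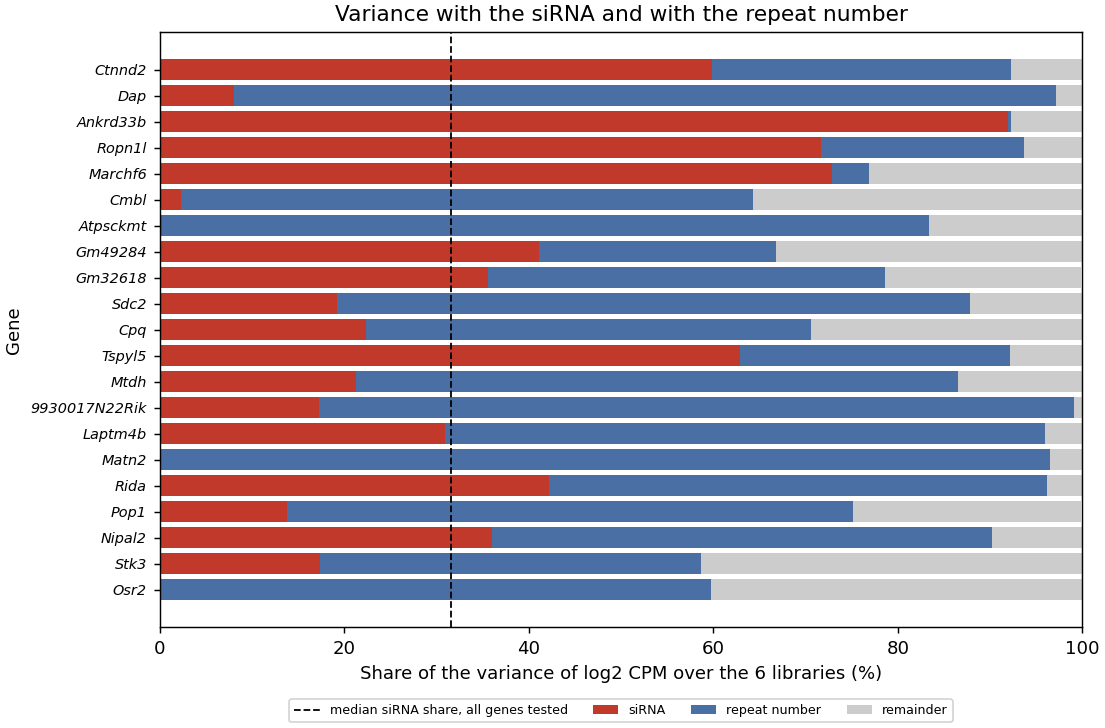
Share of the variance of log2 CPM over the 6 libraries (horizontal axis, %) that went with the siRNA (red), the repeat number (blue) and neither (grey), for each of the 21 tested genes (vertical axis). The dashed line is the median siRNA share of all genes tested, 31.6%, which *Ankrd33b*, *Marchf6*, *Ropn1l*, *Tspyl5* and *Ctnnd2* exceed most.

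Per kilobase of exon, levels in si-NC cells ranged from 0.229 CPM for *9930017N22Rik* to 353 ± 55.4 CPM (SD, n = 3) for *Dap*. *Laptm4b* came next at 46.1 ± 7.99 CPM, then *Sdc2* at 31.4 ± 3.92 and *Cpq* at 30.6 ± 1.6 CPM per kilobase, which did not differ beyond their spread. *Mtdh* was at 25.1, *Matn2* at 15.6, *Marchf6* at 14.5, *Stk3* at 14.4 and *Rida* at 12.7 CPM per kilobase. Of the other 4 genes called with the block, *Ctnnd2* (2.17 CPM per kilobase) and *Ropn1l* (1.84) were in the middle of this order, and *Tspyl5* (0.279) and *Ankrd33b* (0.27) were near its low end.

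**Figure D4:**
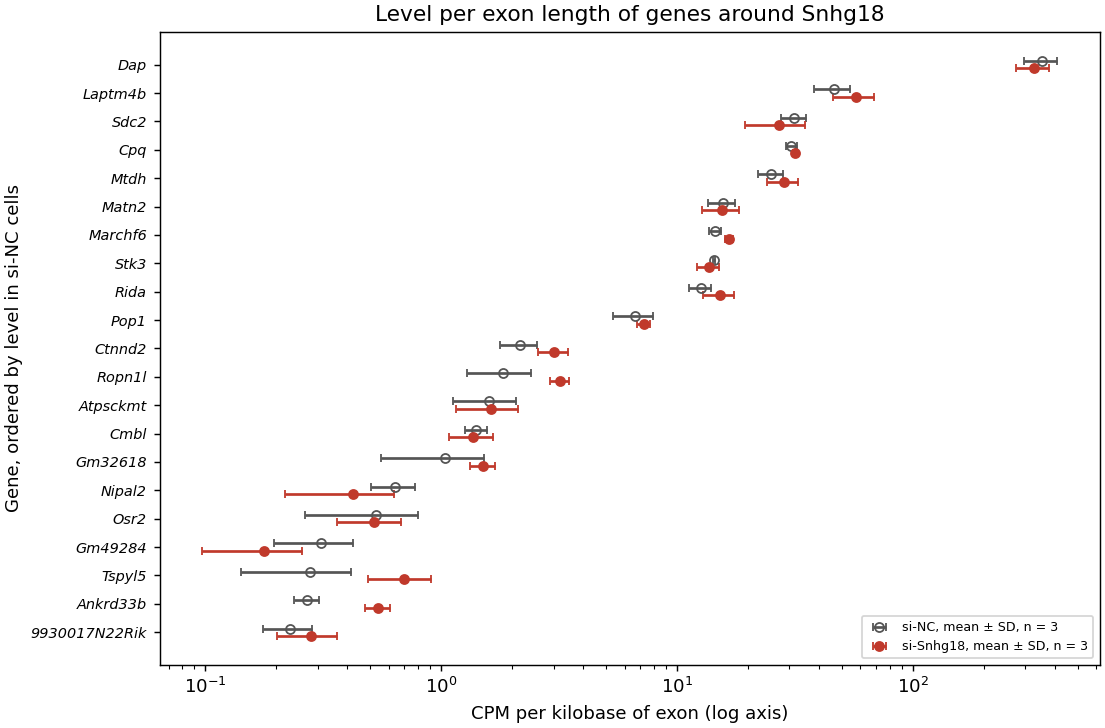
Level per exon length (horizontal axis, CPM per kilobase of exon, log axis) of the 21 tested genes in order of their level in si-NC cells (vertical axis). Open grey points are si-NC and filled red points si-*Snhg18* means, and bars are the SD of 3 libraries. *Dap* stands above all others at 353 CPM per kilobase, and *Ankrd33b* and *Tspyl5* are among the lowest.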

How the data were processed

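Data were 6 RNA-seq libraries, 3 from mPASMCs given si-NC and 3 from mPASMCs given si-*Snhg18*. The libraries were prepared with a stranded mRNA kit, and the submitters' processing notes name HISAT2 and the mm10 genome. The authors deposited whole-number counts of reads per Ensembl gene, without normalization, with exon lengths and positions on GRCm38.p6. The counting program and strand setting are not given in the sources used here. All count columns belonged to these 6 libraries, and groups and repeat numbers were taken from the labels.

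The whole table was fitted with the quasi-likelihood method of edgeR 4.0.16 in R 4.3.3: filterByExpr (minimum count 10, 14531 genes kept), TMM normalization, glmQLFit and glmQLFTest, and Benjamini-Hochberg adjustment over all genes kept, with a call at an adjusted p under 0.05. The common biological coefficient of variation was 0.218. CPM used TMM factors, and log2 CPM carried a prior count of 2. Variance shares divide the sum of squares of log2 CPM between siRNA, repeat number and remainder. Gaps are in bases between gene edges. The tests were also run on simulated counts that held no effect of the repeat number. That check therefore says nothing on how such an effect bears on the calls.

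The paper names no test for the RNA-seq data in particular, only a general one between 2 groups with no mention of pairing, so the fit without a block was used, and the replicate number was added as a block beside it. Pairing comes from the repeat numbers in the labels. Deviations from the group means correlated over all tested genes with r = 0.41, 0.742 and 0.359 between same-numbered libraries 1, 2 and 3. The r between si-NC 3 and si-*Snhg18* 1 was 0.497 and that between si-NC 1 and si-*Snhg18* 3 was 0.186, so numbers 1 and 3 were not told apart by this check. Alternatives were RLE factors, library totals, DESeq2 1.42.0, limma-voom (limma 3.58.1), other filters and thresholds, other definitions of distance and window, and leaving out each library in turn.

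Values are given in every library for called genes, the 3 largest rises and falls, the 3 genes with the most reads and the 3 tested genes nearest to *Snhg18* on each side, with some others chosen after their values were seen. The genes, lists and markers were chosen with earlier results of these data known. Promoter sequences are from RefSeq and the *Snord123* transcript from GENCODE M21.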

Additional observations from a re-analysis of the deposited data

How the results depend on the processing

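Calls rested on few libraries and on the treatment of the repeat number. The genes called around *Snhg18* (1, higher) became 2 with DESeq2, 0 without the filter on low counts and 5 with the replicate block, all higher, and 0 to 2 with each library left out in turn (0 to 1 higher and 0 to 1 lower). Over all genes, 1069 calls became 2124 with DESeq2, 3954 with the replicate block and 0 to 3282 with a library left out. Of the 21 genes tested, the block changed the call of 4 and of no other. The median log2 fold change (0.12) was 0.18 for genes of at least 1 CPM in 3 libraries, 0.0728 without the filter, and 0.0693 to 0.24 with a library left out. On the lower-coordinate side it was 0.19 at 1 CPM in 3 libraries and 0.0851 to 0.23 with a library left out, and on the higher-coordinate side 0.0579 to 0.27. With a library left out, rho between change and gap was -0.27 to 0.05 (signed) and -0.26 to -0.0141 (absolute), and by side 0.45 to 0.74 (lower) and -0.59 to -0.29 (higher). Signed rho was 0.39 for the 14 genes that start within 2 Mb, and -0.35 in the pair numbered 3. Absolute rho was 0.12 within 2 Mb, 0.0228 at 1 CPM in 3 libraries, 0.0279 at a mean of 1 CPM and 0.0169 in the pair numbered 2. On the lower-coordinate side rho was 0.25 at 1 CPM in 3 libraries and 0.0424 without the filter. The pair-by-pair values were chosen after seeing the data. Genes not called changed sign in some fits. With a library left out, log2 fold changes ran from -0.23 to 0.28 for *Atpsckmt*, -0.23 to 0.0581 for *Cmbl*, -0.24 to 0.0019 for *Dap*, -0.17 to 0.10 for *Matn2*, -0.25 to 0.46 for *Osr2* and -0.0275 to 0.22 for *Pop1*. *Matn2* was at 0.0031 with library totals, and *Osr2* at 0.0248 with limma-voom and 0.0288 with the replicate block. The causes were not tested. Of 271 alternative values for single genes, 244 kept their direction and side of the threshold. Fits without a library tested 21 or 22 of the genes. Standard errors of the log2 fold changes (0.07 to 0.48) limit what changes could be seen.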
